A study of Mus musculus with 16 samples.

Results

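The genes described here are 40 cell cycle and DNA replication genes of the 24421 gene symbols in the count table. They were chosen by name and role, with earlier results of these data known. They comprise 5 G1 cyclins and E2F factors, 16 S-phase genes and 19 mitotic genes. The S-phase genes divide into 10 of origin licensing and the replicative helicase and 6 of DNA synthesis and nucleotide supply. The mitotic genes divide into 8 mitotic cyclins and kinases, 9 genes of the spindle, kinetochore and chromosomes, and 2 of the anaphase-promoting complex. All 40 were in the table, and all 40 were among the 13649 genes that passed the filter on low counts.

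RNA was measured by bulk RNA-seq in mouse macrophages sorted from muscle as F4/80+ cells. F4/80 is a surface protein used to mark mouse macrophages and is encoded by Adgre1. The 4 groups of 4 libraries were labelled WT from normal muscle, GLUD1 KO from normal muscle, WT from CTX-injected muscle and GLUD1 KO from CTX-injected muscle. GLUD1 is glutamate dehydrogenase, a mitochondrial enzyme of glutamate metabolism. The series' design text calls the normal state baseline and places the injured state at the height of the damage. The labels name CTX only by that abbreviation. The Cre driver, the deleted part of the gene, the age of the mice and the day after injection are not given in the sources used here. Nothing in them ties the libraries of a group to separate mice; the p-values therefore reflect library-to-library spread, which could be technical.

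Cells that divide pass from G1, where D and E cyclins release E2F factors, into S phase and then mitosis. Licensing factors load the MCM helicase on origins in G1, and synthesis enzymes then copy the DNA. Cyclin B, mitotic kinases, kinetochore proteins and the anaphase-promoting complex act later, and their mRNAs peak in G2 and mitosis. Tissue macrophages can renew themselves by division, while macrophages of injured muscle also arise from blood monocytes.

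Total counts ran from 17051892 to 23097420 per library. The 9 pan-macrophage markers summed to between 10300 and 19200 CPM in normal muscle (CPM, a gene's share of the scaled library total). In CTX muscle they summed to 28600 to 35700 CPM in WT and 21500 to 25800 CPM in KO. Lyz2 made up much of these sums, with means of 8686 CPM in WT normal and 14890 CPM in WT CTX libraries. At the threshold used below, Csf1r and Mertk fell with CTX in both genotypes. Of the 9 genes 7 rose in WT and 6 in KO, beside 33.3% of all genes in each. Glud1 itself had 256 ± 30.3 CPM in the normal libraries labelled WT and 240 ± 25.3 CPM in those labelled KO (SD, n = 4 each), with an edgeR log2 difference of -0.09 (SE 0.10). In CTX muscle it had 373 ± 19.9 and 339 ± 10.5 CPM, a log2 difference of -0.14 (SE 0.10). Counts over the whole gene cannot show a deletion of only some exons, so Glud1 did not check the genotype labels, and genotype is given below as labelled. Xist, transcribed in female cells, stood at 104.1 to 258.2 CPM of total counts in 3 normal libraries (WT 5, WT 6 and KO 5) and at no more than 0.153 CPM in the other 13. KO CTX library 3 and WT CTX library 2 also stood apart within their groups in the genes described here.

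Most of the 40 genes were lower in macrophages of CTX muscle than in those of normal muscle, and the median fall was larger for mitotic than for S-phase genes. In WT, 37 of 40 genes fell and 2 rose at an adjusted p under 0.05 (edgeR's quasi-likelihood test with Benjamini-Hochberg adjustment over all genes tested). Among all genes tested, 39.4% fell and 33.3% rose. In the libraries labelled KO, 36 of 40 fell and 2 rose, against 40.2% and 33.3% of all genes. The 2 that rose were Cdt1 and Pcna in each genotype, but Pcna's direction depended on scaling, as given below. The same 36 genes fell in both genotypes, beside 35.9% of all genes, and the same 2 rose in both, beside 30.9%. In these bulk libraries, fewer dividing cells and less of each mRNA per cell cannot be told apart.

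The median log2 change of the 19 mitotic genes was -3.16 in WT, an 8.91-fold lower level, and -2.62 or 6.15-fold lower in KO. For the 16 S-phase genes it was -1.35 in WT, 2.55-fold lower, and -1.26 or 2.39-fold lower in KO. The medians over all genes tested were -0.15 and -0.16. All 19 mitotic genes fell in both genotypes, whereas 14 of 16 S-phase genes fell. A fall of at least 4-fold was called for 16 of 19 mitotic and 3 of 16 S-phase genes in WT, against 15.9% of all genes. In KO the counts were 15 and 2, against 17.5% of all genes. The ranges of the sets overlapped in WT, at 1.02 to -3.18 for S-phase and -0.74 to -5.70 for mitotic genes. Tk1 was the only S-phase gene below the mitotic median, and Aurka the only mitotic gene above the S-phase median.

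WT and KO libraries of normal muscle did not overlap those of CTX muscle for 36 of 40 genes in WT and 35 of 40 in KO, against 65.5% and 66.8% of all genes tested. The ranges that overlapped in WT were those of E2f8, Ccne2, Cdc45 and Mki67, and in KO those of E2f8, Ccne2, Mcm6, Rrm1 and Aurka. Without WT CTX library 2, the mitotic median in WT was -4.14. Scaled by library totals alone, the medians of all genes moved to -0.77 in both genotypes, and 18.9% of the WT calls and 18.6% of the KO calls were higher in CTX, in place of 45.8% and 45.3%.

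**Figure D1:**
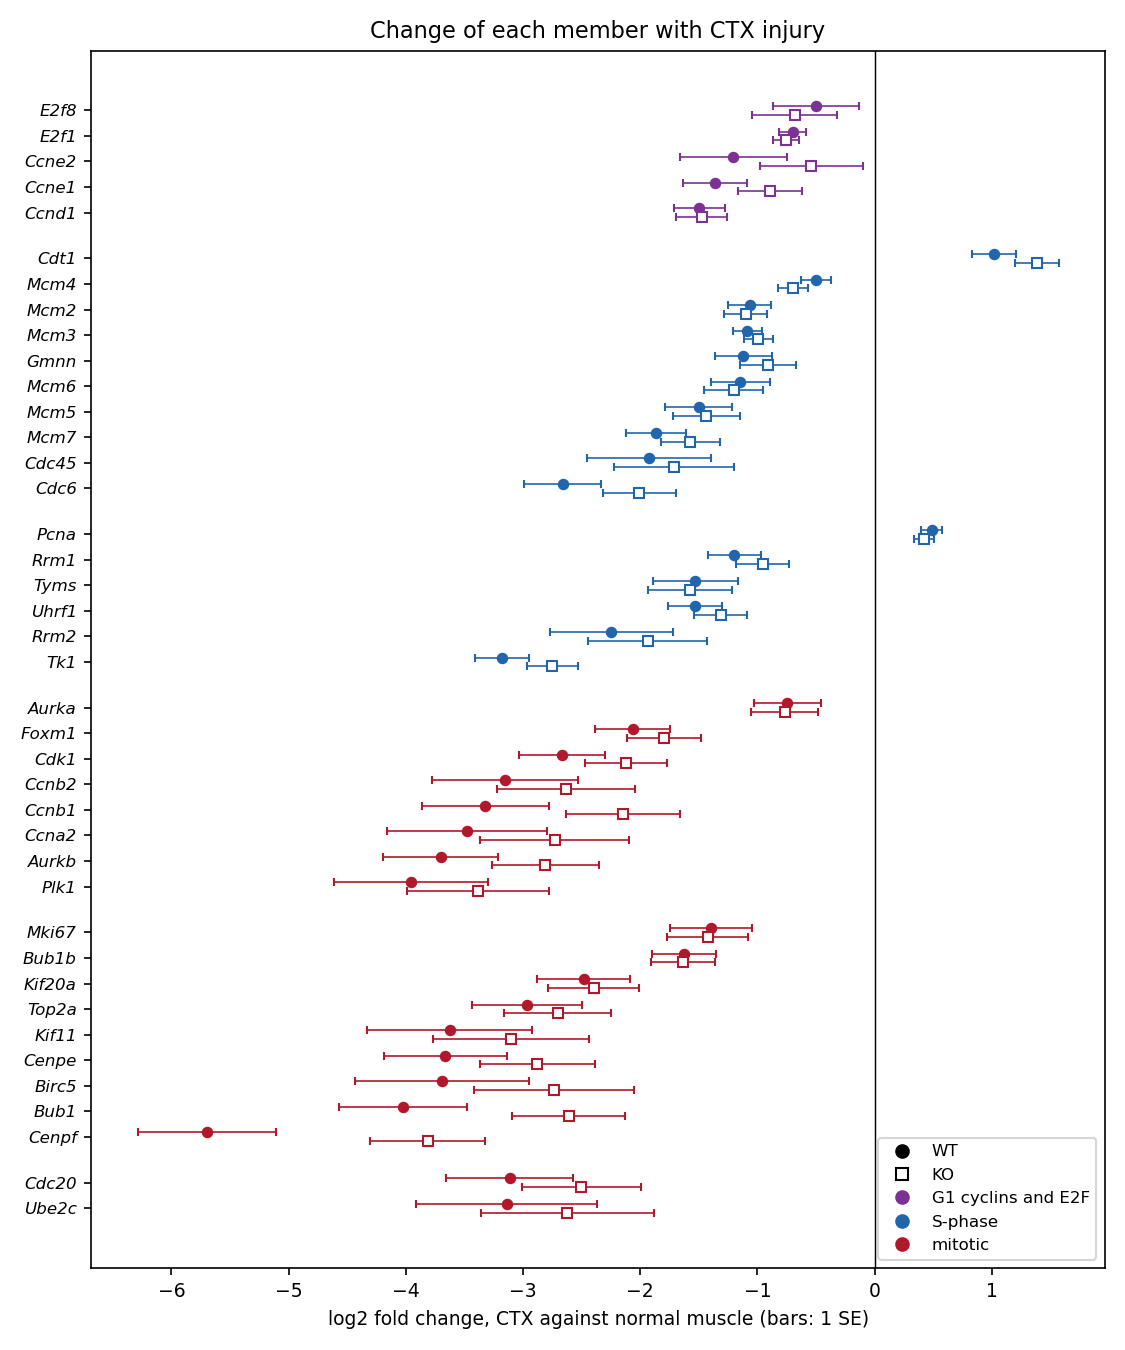
Log2 fold change of each of the 40 genes in CTX against normal muscle (x axis; bars are 1 SE from edgeR) by gene and role (y axis), with filled circles for WT and open squares for KO. Mitotic genes in red reach from -0.74 to -5.70 in WT, S-phase genes in blue from 1.02 to -3.18; Cdt1 and Pcna lie right of 0, Pcna not with library totals alone.

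Promoter sequence is shown for 4 genes. Tk1 and Cenpf had the smallest p of the S-phase and mitotic genes in WT, Cenpf also the deepest fall and Cdt1 the largest rise. Mcm3 was added after matches were seen, as the S-phase gene of smallest p with an E2F match. Each line runs 5′ to 3′ on the gene's strand from 250 bases before to 30 after the RefSeq start (GRCm38.p6). The intervals are chr11:117825985-117826264 on the minus strand for Tk1, chr1:189688057-189688336 on the minus strand for Cenpf, chr8:122567765-122568044 on the plus strand for Cdt1 and chr1:20820283-20820562 on the minus strand for Mcm3. Capitals mark the motif matches: an E2F element, a cell cycle genes homology region (CHR) or a CCAAT box.
Tk1: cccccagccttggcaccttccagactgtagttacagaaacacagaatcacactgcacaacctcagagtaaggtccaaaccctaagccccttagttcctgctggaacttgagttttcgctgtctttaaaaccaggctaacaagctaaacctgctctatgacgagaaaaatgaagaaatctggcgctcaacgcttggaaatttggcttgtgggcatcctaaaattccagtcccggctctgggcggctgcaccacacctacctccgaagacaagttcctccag
Cenpf: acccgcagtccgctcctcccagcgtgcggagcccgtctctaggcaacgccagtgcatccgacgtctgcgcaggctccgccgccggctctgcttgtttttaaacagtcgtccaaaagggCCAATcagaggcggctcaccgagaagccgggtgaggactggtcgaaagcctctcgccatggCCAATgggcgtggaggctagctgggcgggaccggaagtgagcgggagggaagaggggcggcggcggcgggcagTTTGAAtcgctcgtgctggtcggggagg
Cdt1: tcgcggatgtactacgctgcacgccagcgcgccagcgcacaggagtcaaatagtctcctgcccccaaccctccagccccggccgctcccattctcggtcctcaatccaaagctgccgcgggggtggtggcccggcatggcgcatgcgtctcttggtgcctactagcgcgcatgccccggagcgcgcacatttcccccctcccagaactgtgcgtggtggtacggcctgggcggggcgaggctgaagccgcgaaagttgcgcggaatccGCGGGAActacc
Mcm3: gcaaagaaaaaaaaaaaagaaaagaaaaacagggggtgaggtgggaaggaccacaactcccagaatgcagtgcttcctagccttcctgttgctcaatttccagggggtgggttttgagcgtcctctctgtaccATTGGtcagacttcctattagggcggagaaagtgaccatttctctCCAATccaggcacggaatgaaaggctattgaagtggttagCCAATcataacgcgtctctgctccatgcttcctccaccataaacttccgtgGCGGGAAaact

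In these windows Cenpf held a CHR at base 3 after its start, with CCAAT boxes starting 132 and 71 bases before it. Cdt1 held the E2F match GCGGGAA at base 19, and Mcm3 the same letters at base 20 with 3 CCAAT boxes, 1 of them read as ATTGG. Tk1 held no match to the letters searched. Its RefSeq start lies inside the gene as annotated by GENCODE, whose 5′ end is at 117826092, so this window is not placed on that end. The starts used for Cenpf, Cdt1 and Mcm3 are the GENCODE 5′ ends.

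The RefSeq table of promoters matched 32 of the 40 genes; Ccnd1, Ccne2, Gmnn, Mcm4, Ccna2, Foxm1, Aurkb and Kif20a were not matched. Windows from 250 bases before to 50 after the start were searched on both strands for E2F (TTCCCGC or TTGGCGC or TTCGCGC or TTGCCGC), CHR (TTTGAA or TTCGAA) and CCAAT. A gene counted as matched if any of its listed starts had a match. An E2F match was held by 9 of 14 S-phase genes (64.3%), 3 of 15 mitotic genes (20.0%) and 10.9% of 27025 genes in the table. A CHR match was held by 3 of 14 S-phase genes (21.4%), 12 of 15 mitotic genes (80.0%) and 21.7% of all. CCAAT was held by 10 of 14 S-phase genes (71.4%), 14 of 15 mitotic genes (93.3%) and 41.1% of all. The 16 genes with a CHR match, 12 of them mitotic, had a median log2 change of -2.82 in WT, and the 16 matched genes without one -1.51. The 13 genes with an E2F match had a median of -1.50 and the 19 without one -3.11. Mitotic genes without a CHR match were Ccnb1, Cenpe and Birc5, at -3.32, -3.66 and -3.69. The motif splits thus largely repeat the split into mitotic and S-phase genes. A match is a description of letters and was not tested as a site.

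Of the G1 genes, the D cyclin Ccnd1, which activates CDK4 and CDK6, gave the clearest fall. It had 30.8, 22.5, 23.7 and 31.6 CPM in WT normal libraries 2, 3, 5 and 6 and 8.21, 8.14, 8.37 and 13.7 CPM in WT CTX libraries 1 to 4. The libraries labelled KO had 31.1, 29.6, 21.0 and 39.4 CPM in normal (1, 2, 3 and 5) and 8.29, 9.74, 12.7 and 12.8 CPM in CTX muscle (1 to 4). Every CTX library lay below every normal library, and WT CTX library 4 was high within its group. The log2 change was -1.49 (SE 0.22, edgeR adjusted p = 1.51e-05) in WT and -1.47 (SE 0.22, adjusted p = 1.61e-05) in KO. Of its exon length, 23.4% overlaps the opposite-strand gene LTO1, which reads without strand cannot tell apart.

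The E cyclins drive CDK2 at the G1 to S transition. Per kilobase of exon they were among the lowest of the 40 genes in WT normal libraries, at 1.70 CPM per kb for Ccne1 (rank 36) and 0.648 for Ccne2 (rank 40). Exons of Ccne2 overlap Ints8 on the opposite strand over 17.4% of their length. Over all libraries Ints8 had 12467 counts and Ccne2 598. Ccne1 changed by -1.36 in WT and -0.89 in KO on the log2 scale. Ccne2 changed by -1.21 in WT (edgeR adjusted p = 0.0256), a call lost on leaving out WT normal library 2 or 3 or WT CTX library 1 or 3 (adjusted p from 0.0587 to 0.0717). Its KO change of -0.54 did not pass (adjusted p = 0.28), but was called with library totals alone (-1.16, adjusted p = 0.0297) and with the replicate block (-0.93, adjusted p = 0.0157). The activator E2f1 changed by -0.70 and -0.76 in WT and KO. E2f8, an atypical E2F that represses S-phase genes, was at -0.50 in WT (adjusted p = 0.225) and -0.68 in KO (adjusted p = 0.102). Its normal libraries split into 5.61 to 6.24 CPM in the 3 with Xist and 13.2 to 18.3 CPM in the other 5, and without the Xist libraries it was called at -1.01 and -0.94 (adjusted p = 0.00438 and 0.00294). With the replicate block it was called at -0.93 and -0.81 (edgeR adjusted p = 0.0073 and 0.009). The Xist libraries have numbers 5 and 6, which occur only in normal muscle, so the block sets no CTX library beside them. That run is therefore not separate from the fit without them. With library totals alone E2f8 was called at -1.13 and -1.29 (edgeR adjusted p = 0.0102 and 0.00414). Its KO change was also called with a filter of 5 CPM (-0.85, adjusted p = 0.0469) and without KO normal library 5 (-0.95, adjusted p = 0.0185).

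Among licensing genes, Cdt1, which brings the MCM helicase to origins, rose. Its WT libraries had 21.9, 35.0, 27.6 and 29.7 CPM in normal and 59.0, 61.1, 47.9 and 63.4 CPM in CTX muscle. Its KO libraries had 17.5, 18.8, 34.1 and 26.1 CPM in normal and 62.7, 69.7, 62.6 and 56.9 CPM in CTX muscle. Normal and CTX libraries did not overlap, and the Xist libraries were not set apart. Its log2 change was 1.02 (SE 0.19, edgeR adjusted p = 1.3e-04) in WT and 1.39 (SE 0.19, adjusted p = 6.37e-06) in KO. It stayed positive with library totals alone, at 0.41 and 0.79.

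Gmnn encodes geminin, which binds CDT1 protein and blocks relicensing. It fell while Cdt1 rose, from 7.88 ± 2.06 to 3.63 ± 0.886 CPM in WT and from 9.47 ± 2.26 to 5.06 ± 1.04 CPM in KO (SD, n = 4 each). Its log2 changes were -1.12 and -0.90 (edgeR adjusted p = 6.76e-04 and 0.00291). The ratio of Cdt1 to Gmnn CPM, which total scaling does not alter, was 1.54 to 4.92 in the 8 normal libraries and 9.78 to 22.7 in the 8 CTX libraries, with no overlap.

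Mcm3, a subunit of the MCM helicase, had the smallest p of the licensing genes. It measured 68.5, 64.7, 65.9 and 52.5 CPM in WT normal and 27.1, 34.8, 27.2 and 29.5 CPM in WT CTX libraries. Its KO values were 57.0, 68.7, 65.4 and 47.9 CPM in normal and 28.1, 29.9, 29.9 and 32.4 CPM in CTX libraries. The groups were narrow and apart. It changed on the log2 scale by -1.08 (SE 0.12, edgeR adjusted p = 9.62e-07) in WT and -0.99 (SE 0.12, adjusted p = 2.43e-06) in KO.

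The 6 MCM subunits all fell in both genotypes but by unequal amounts, from -0.50 for Mcm4 to -1.86 for Mcm7 in WT and from -0.70 for Mcm4 to -1.57 for Mcm7 in KO. Mcm2, Mcm5 and Mcm6 lay between. Per kilobase of exon the subunits spanned 5.34 (Mcm2) to 16.8 (Mcm3) CPM per kb in WT normal libraries and 2.15 (Mcm7) to 8.77 (Mcm4) in WT CTX libraries. Cdc6, which loads MCM together with CDT1, changed by -2.66 in WT and -2.01 in KO, going from 7.51 ± 1.31 to 1.19 ± 0.317 CPM in WT (SD, n = 4). Cdc45, a part of the active helicase, changed by -1.93 and -1.71, and was at -2.57 in WT without WT CTX library 2.

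Of the DNA synthesis genes, Tk1, thymidine kinase of the salvage pathway, fell most and had the smallest p of all 40 genes. It had 12.9, 11.3, 9.91 and 12.5 CPM in WT normal and 1.02, 1.51, 1.40 and 1.21 CPM in WT CTX libraries. The KO libraries had 10.8, 14.7, 11.5 and 15.3 CPM in normal and 2.76, 1.87, 1.17 and 1.97 CPM in CTX muscle. No library came near the other state, and the Xist libraries (9.91 to 15.3 CPM) spanned the other normal ones (10.8 to 14.7 CPM). This was a log2 change of -3.18 (SE 0.23, edgeR adjusted p = 9.15e-09) in WT and -2.75 (SE 0.22, adjusted p = 2.65e-08) in KO.

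Pcna, the sliding clamp of DNA polymerases and also a repair factor, was higher in CTX muscle with TMM scaling and slightly lower with library totals alone. Its WT values were 48.1, 58.8, 53.7 and 50.6 CPM in normal and 79.3, 72.4, 67.1 and 77.1 CPM in CTX libraries. Its KO values were 52.1, 50.3, 57.0 and 48.5 CPM in normal and 72.9, 71.1, 70.4 and 64.9 CPM in CTX libraries. The TMM-scaled values of the states did not overlap. The change was 0.49 (SE 0.09, edgeR adjusted p = 1.03e-04) in WT and 0.43 (SE 0.09, adjusted p = 3.36e-04) in KO. With library totals alone it was -0.12 (adjusted p = 0.186) and -0.18 (adjusted p = 0.0562). Relative to the median of all genes it was at 0.64 with TMM and 0.65 with totals in WT, and 0.59 with either in KO. Per kilobase of exon Pcna was the highest of the 40 genes, at 22.0 CPM per kb in WT normal and 30.8 in WT CTX libraries, and Cdt1 moved from rank 8 to rank 2 between these groups. The annotation also lists pseudogenes of Pcna, and no source used here says how reads that match several places were counted.

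The other synthesis genes fell in both genotypes. The ribonucleotide reductase subunits were unequal: Rrm2, the subunit restricted to S phase, changed by -2.25 in WT and -1.94 in KO, and Rrm1 by -1.20 and -0.95. Tyms, thymidylate synthase, changed by -1.53 and -1.57. Uhrf1, which maintains DNA methylation at replication, changed by -1.53 and -1.31.

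**Figure D2:**
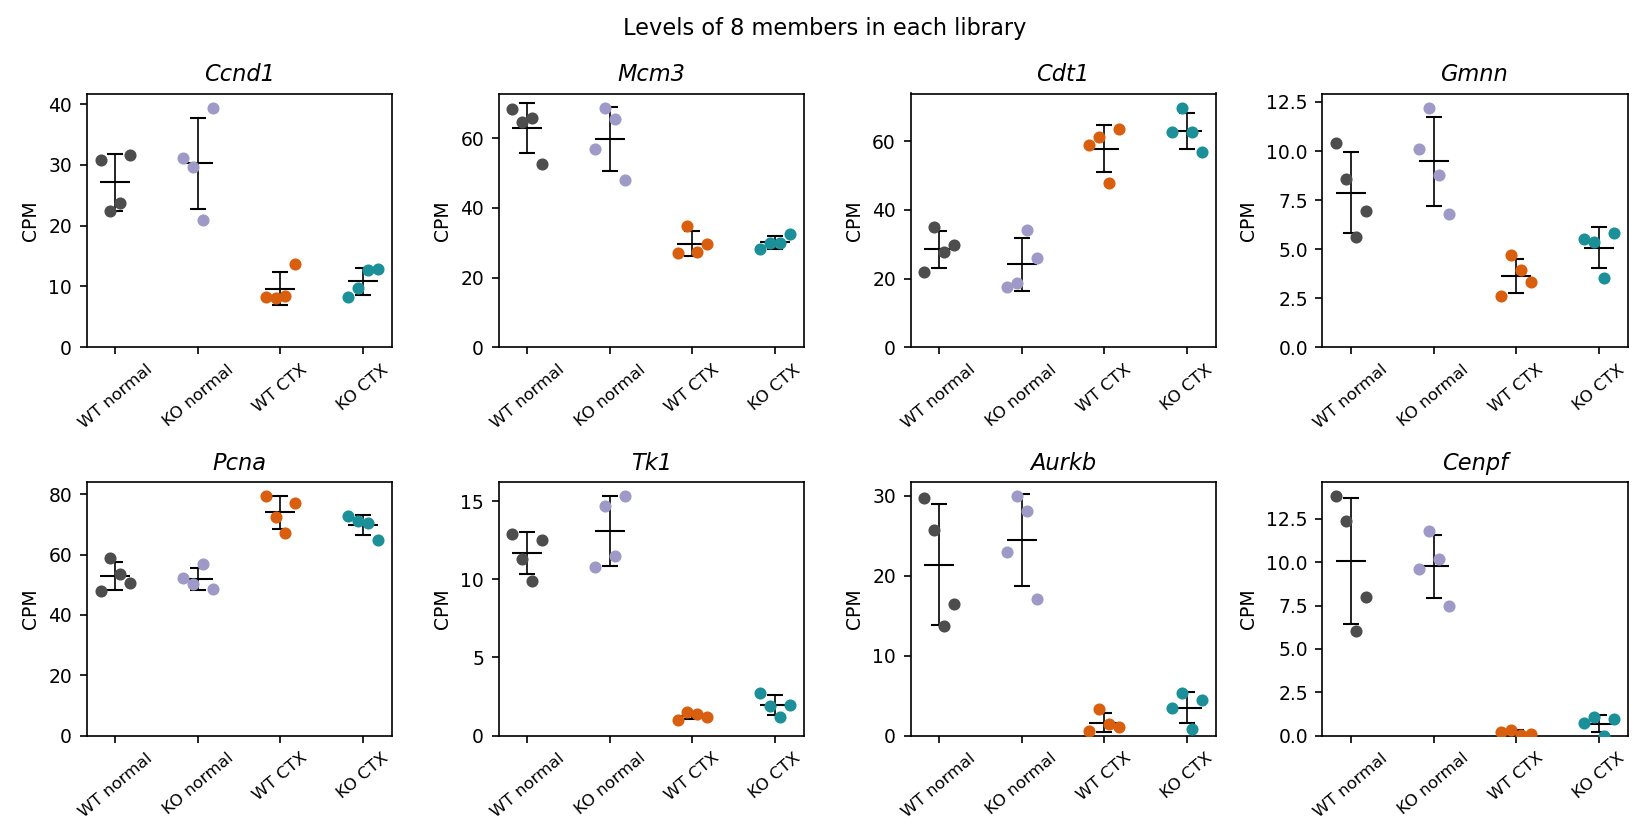
CPM (y axis, from 0) of 8 genes in each library by group; points are libraries, the bar is the mean and the whiskers 1 SD (n = 4). Cdt1 rises from between 17.5 and 35.0 CPM in normal muscle to between 47.9 and 69.7 CPM after CTX while Gmnn, Tk1, Aurkb and Cenpf fall; Pcna is higher after CTX here but not with library totals alone.

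The mitotic cyclins and kinases fell together in every CTX group. Aurkb, the kinase of the chromosomal passenger complex, had the smallest p among them. It measured 29.7, 25.7, 13.7 and 16.4 CPM in WT normal and 0.623, 3.35, 1.46 and 1.1 CPM in WT CTX libraries. Its KO values were 22.9, 29.9, 28.1 and 17.1 CPM in normal and 3.40, 5.32, 0.839 and 4.42 CPM in CTX libraries. Normal and CTX libraries were separate, the 3 Xist libraries were the lowest normal ones, and KO CTX library 3 was lowest in its group. On the log2 scale this was -3.70 (SE 0.49, edgeR adjusted p = 5.72e-06) in WT and -2.81 (SE 0.46, adjusted p = 4.36e-05) in KO.

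Cdk1, the main mitotic kinase, changed by -2.67 in WT and -2.12 in KO on the log2 scale. Its cyclins fell too: Ccnb1 changed by -3.32 and -2.14, Ccnb2 by -3.16 and -2.63, and Ccna2, which also acts in S phase, by -3.48 and -2.73. Without WT CTX library 2, Ccnb2 was at -4.14 and Ccna2 at -4.25 in WT. Exons of Ccna2 overlap Exosc9 on the opposite strand over 12.5% of their length. Plk1, a kinase of mitotic entry and spindle assembly, changed by -3.95 and -3.38. Foxm1, a transcription factor of mitotic genes, changed by -2.07 and -1.80. Aurka, the centrosomal Aurora kinase, was the exception in size, at -0.74 in WT (edgeR adjusted p = 0.0296) and -0.77 in KO (adjusted p = 0.0241). The WT call was lost without WT normal library 2 or 3 or WT CTX library 4, and the KO call without KO normal library 2 or 3 or KO CTX library 2 or 3 (adjusted p from 0.0514 to 0.129).

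Among spindle, kinetochore and chromosome genes, Cenpf, a late kinetochore protein, had the deepest fall of the 40. WT normal libraries had 13.8, 12.4, 6.05 and 8.02 CPM and WT CTX libraries 0.227, 0.335, 0.0665 and 0.11 CPM, the latter from 4, 6, 1 and 2 counts. KO normal libraries had 9.62, 11.8, 10.2 and 7.45 CPM and KO CTX libraries 0.749, 1.08, 0 and 0.935 CPM, from 13, 19, 0 and 18 counts. All 8 CTX libraries were far below all 8 normal ones, and KO CTX library 3 had no read, which allows up to 0.168 CPM (3 counts; counting error only). In log2 terms the change was -5.70 (SE 0.59, edgeR adjusted p = 3.97e-07) in WT and -3.81 (SE 0.49, adjusted p = 4.14e-06) in KO.

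The other kinetochore and spindle genes fell as well. Bub1, a spindle checkpoint kinase, changed by -4.02 in WT and -2.61 in KO, while Bub1b, which encodes BubR1 of the same checkpoint, changed by -1.63 and -1.64. The motor proteins Cenpe, Kif11 and Kif20a changed by -3.66, -3.63 and -2.48 in WT. Birc5, survivin of the passenger complex, changed by -3.69 in WT and -2.73 in KO. Without WT CTX library 2 the WT changes were larger, at -5.05 for Kif11, -5.22 for Birc5, -4.44 for Cenpe and -4.34 for Aurkb. Exons of Kif20a overlap Cdc23 on the opposite strand over 29.3% of their length.

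Top2a encodes the topoisomerase that untangles DNA, and Mki67 the Ki-67 protein of mitotic chromosomes, a common marker of cycling cells. Top2a went from 56.4 ± 21.2 to 7.20 ± 4.29 CPM in WT and from 64.4 ± 23.6 to 9.89 ± 5.07 CPM in KO (SD, n = 4 each), log2 changes of -2.97 and -2.70. Mki67 went from 63.8 ± 26.9 to 24.3 ± 10.7 CPM in WT and from 67.5 ± 19.4 to 25.2 ± 7.28 CPM in KO, log2 changes of -1.40 and -1.43 (edgeR adjusted p = 0.00198 and 0.00164). WT CTX library 3 had 38.0 CPM of Mki67, above WT normal library 5 at 33.2 CPM. With Aurka and Bub1b, Mki67 was one of the 3 mitotic genes that fell least in WT.

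Of the anaphase-promoting complex genes, Cdc20, its mitotic activator, had the smaller p. It measured 21.5, 15.3, 7.38 and 9.07 CPM in WT normal and 1.81, 2.56, 1.66 and 0.11 CPM in WT CTX libraries. Its KO values were 16.4, 26.9, 20.1 and 8.68 CPM in normal and 3.11, 3.23, 1.90 and 4.47 CPM in CTX libraries. The states did not overlap. The log2 difference was -3.11 (SE 0.54, edgeR adjusted p = 8.29e-05) in WT and -2.50 (SE 0.50, adjusted p = 3.29e-04) in KO. Ube2c, its ubiquitin-conjugating enzyme, changed by -3.14 and -2.62, and was at -4.70 in WT without WT CTX library 2. Its exons overlap Tnnc2 on the opposite strand over 22.8% of their length.

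**Figure D3:**
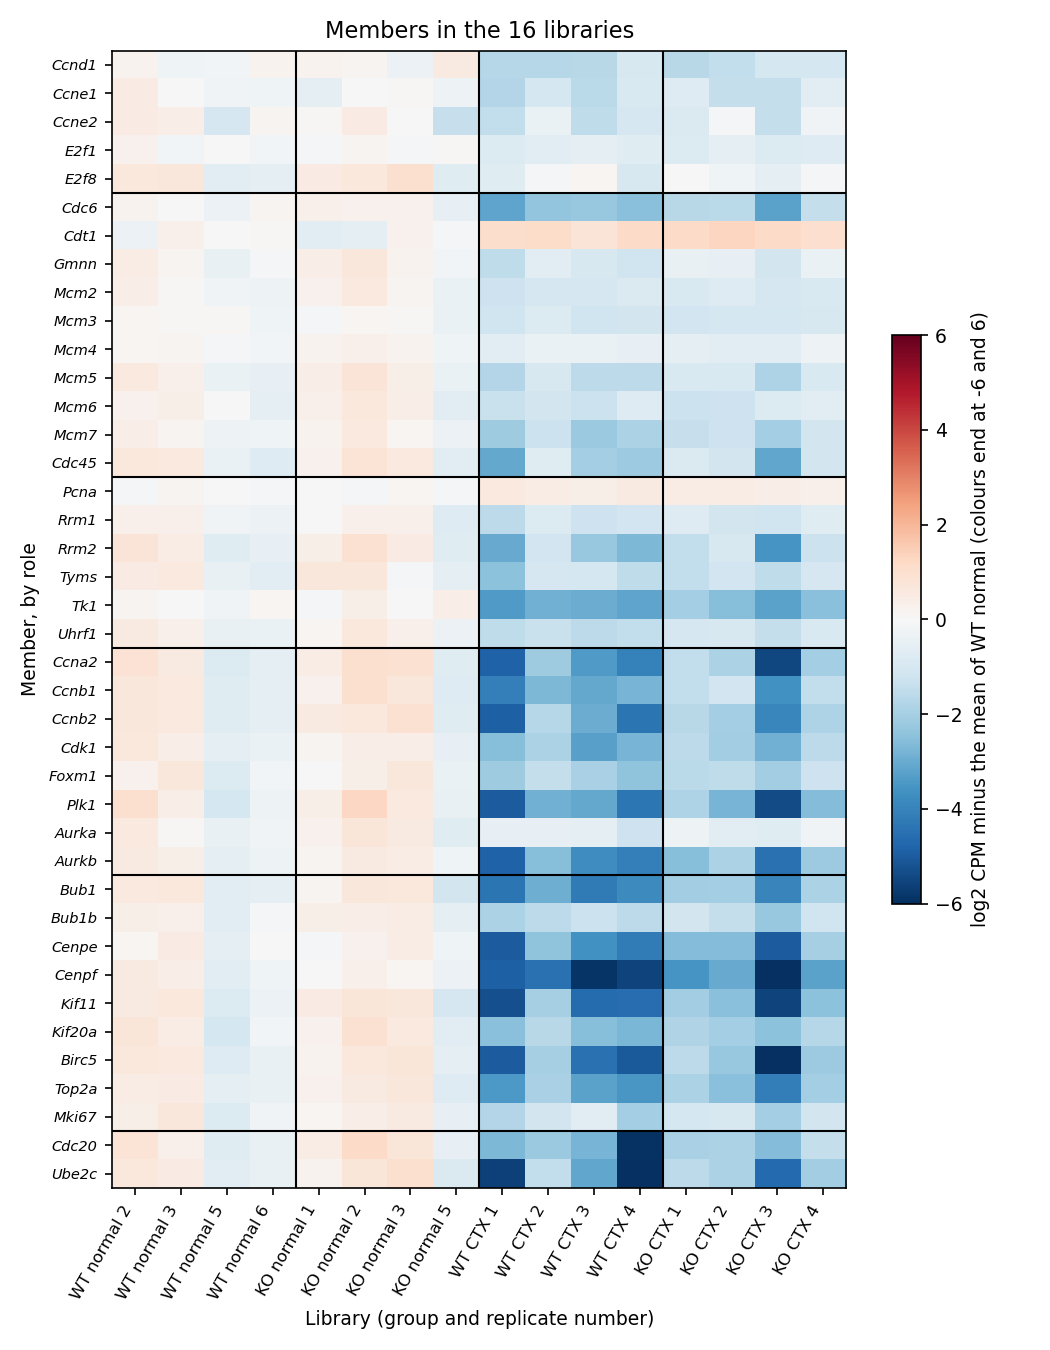
Log2 CPM of the 40 genes (y axis, by role) in the 16 libraries (x axis), relative to the mean of the WT normal libraries; colours end at -6 and 6. Most genes are blue in the CTX libraries, most deeply in the mitotic blocks. There KO CTX library 3 is the lowest of its group in 19 of 19 genes and WT CTX library 2 the highest of its group in 17 of 19. The shares of all genes with these patterns were not counted. Cdt1 is red, as is Pcna on this TMM scale though not with library totals alone.

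Levels of the sets were also compared library by library, as the mean log2 CPM over their genes. The 19 mitotic genes had 4.58, 4.49, 3.29 and 3.67 in WT normal libraries 2, 3, 5 and 6 and 4.24, 4.66, 4.62 and 3.39 in KO normal libraries 1, 2, 3 and 5. In CTX libraries 1 to 4 they had 0.25, 1.92, 0.93 and 0.25 in WT and 2.23, 2.05, 0.11 and 2.18 in KO. The mitotic level of every CTX library was below that of every normal one, and the CTX groups overlapped each other. The 16 S-phase genes had 4.22 to 5.03 in the 8 normal and 2.95 to 3.79 in the 8 CTX libraries. The mitotic mean was below the S-phase mean in every library, with differences from -1.05 to -0.21 in normal and from -3.04 to -1.47 in CTX libraries, again with no overlap.

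**Figure D4:**
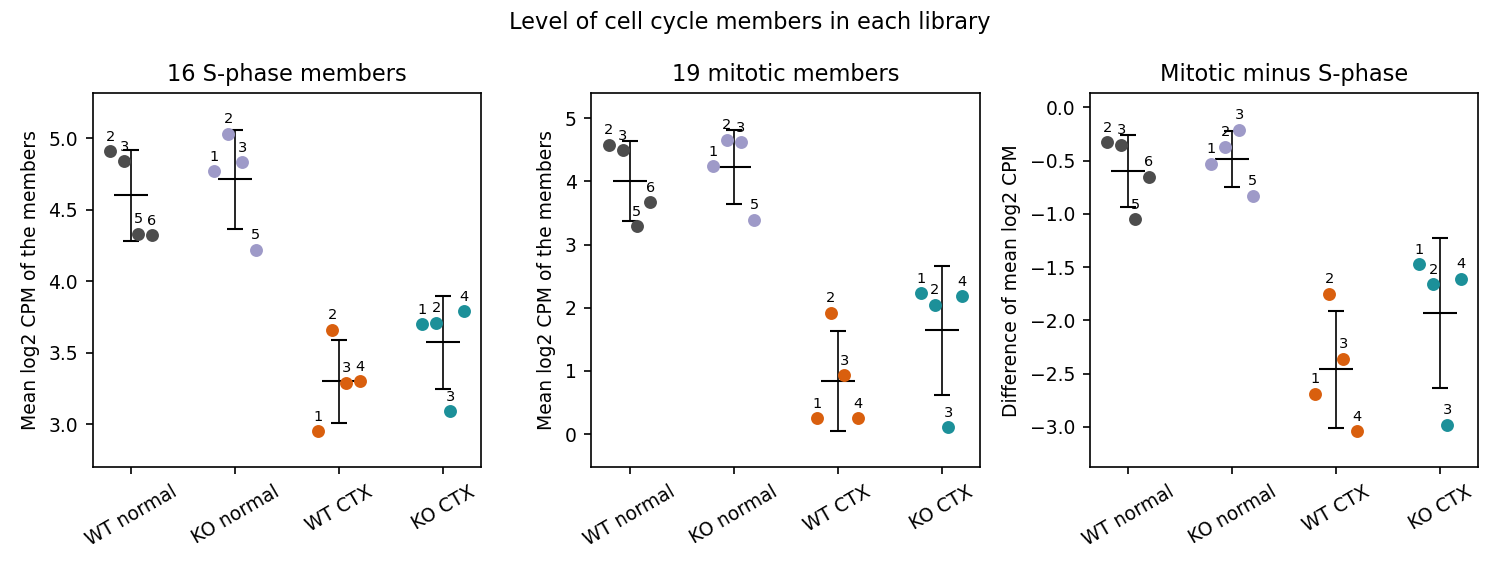
Mean log2 CPM of the 16 S-phase genes, of the 19 mitotic genes and the mitotic minus S-phase difference (y axes) by group, with replicate numbers beside the points; the bar is the mean and whiskers are 1 SD (n = 4). The difference is -1.05 to -0.21 in normal and -3.04 to -1.47 in CTX libraries.

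Within normal muscle the libraries with Xist held less of most of these genes. In 30 of 40 genes all 3 Xist libraries lay below the other 5, against 7.67% of all genes tested, and this held for 18 of 19 mitotic, 11 of 16 S-phase and 1 of 5 G1 genes. The median ratio of the other 5 to the 3 was 2.25 for mitotic and 1.54 for S-phase genes. Neutrophil markers were also lower there: 8 genes (S100a8, S100a9, Elane, Mpo, Ltf, Camp, Ngp and Retnlg) summed to 237 to 879 CPM in the 3 Xist libraries and to 1450 to 6600 CPM in the other 5. Fibroblast markers summed to 186 to 252 against 437 to 889 CPM, and muscle fibre markers to 35.4 to 40.5 against 10.4 to 16.2 CPM. The part of these cells, or of sex, in the levels was not tested. Without the Xist libraries the injury medians in WT were -3.67 for mitotic and -1.67 for S-phase genes, and in KO -2.89 and -1.45.

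Within CTX muscle, KO library 3 was the lowest of its group in 19 of 19 mitotic and 12 of 16 S-phase genes. WT library 2 was the highest of its group in 17 of 19 mitotic and 10 of 16 S-phase genes. The shares of all genes tested with these patterns were not counted, so the patterns cannot be called particular to these genes. The genes also share the same libraries. The 8 neutrophil markers summed to 852, 632, 218 and 1110 CPM in KO CTX libraries 1 to 4 and to 117, 351, 342 and 243 CPM in WT CTX libraries 1 to 4. KO CTX library 3, lowest in mitotic genes, thus had the lowest neutrophil sum of its group, and every marker but Retnlg was lowest there. The sum of WT CTX library 2 was the highest of its own group, but close to that of library 3 (351 and 342 CPM). In WT, S100a8 was highest in library 3 (161 CPM) and Retnlg in library 4 (77.4 CPM), and the other markers were highest in library 2. The part of neutrophil RNA in the mitotic levels was not tested.

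**Figure D5:**
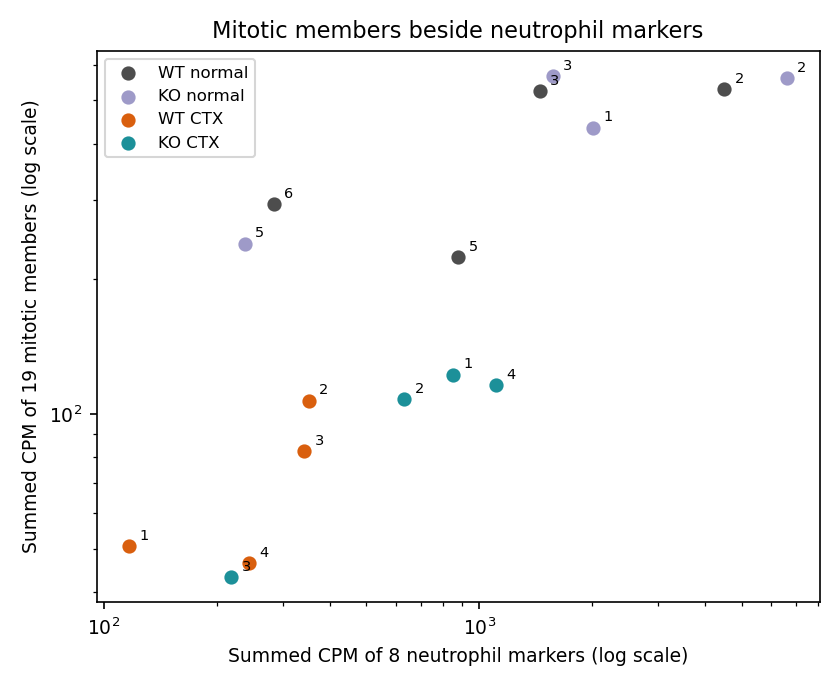
Summed CPM of the 19 mitotic genes (y axis, log scale) against summed CPM of 8 neutrophil markers (x axis, log scale), 1 point per library with its replicate number, coloured by group. CTX libraries have mitotic sums of 43.2 to 122 CPM and normal libraries 223 to 567 CPM. KO CTX library 3 (218 CPM of neutrophil markers) has the lowest mitotic sum. WT CTX library 1 has the lowest neutrophil sum (117 CPM, with a mitotic sum of 50.6 CPM). Normal libraries WT 6 and KO 5 have neutrophil sums of 284 and 237 CPM and mitotic sums of 292.8 and 239.6 CPM.

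Markers of other cells moved with injury. Of the 8 neutrophil markers 6 were called lower in WT and 1 in KO, beside 39.4% and 40.2% of all genes tested. All 8 had lower estimates in both, with median log2 changes of -4.13 in WT and -2.33 in KO, and the interaction called none. Of 8 dendritic cell markers 7 fell and Xcr1 rose in both, with normal sums of 425 to 818 CPM and CTX sums of 55.1 to 99.3 CPM. T and NK markers other than Il7r summed to between 28.0 and 92.4 CPM in normal muscle and between 1.40 and 7.95 CPM after CTX; Ncr1 was at 0 in all WT CTX libraries, and Il7r itself rose. B cell markers summed to 11.8 to 42.3 and 1.20 to 9.40 CPM, with Pax5 at 0 in all CTX libraries. Endothelial markers summed to 136 to 247 and 65.4 to 85.6 CPM, fibroblast markers to 186 to 889 and 54.5 to 100 CPM, and muscle fibre markers to 10.4 to 40.5 and 2.49 to 4.93 CPM. Satellite cell markers summed to at most 2.15 CPM in any library, with Pax7 and Myog at 0 in CTX libraries. Musk, the one gene of that list that passed the filter on low counts, rose from 0.285 to 1.73 CPM in WT (log2 change 2.58, edgeR adjusted p = 1.38e-04) and by 2.88 in KO (adjusted p = 6.27e-05). Immediate early and heat shock genes summed to between 20700 and 26600 CPM in normal muscle and between 4460 and 6030 CPM after CTX. The part of these in the fall of the cell cycle genes was not tested.

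None of the 40 genes was called between the genotypes as labelled. In CTX muscle 0 of 40 were called, against 0.00733% of all genes called higher and 0% lower, and 6 of 40 had an unadjusted p under 0.05, against 6.67% of all genes. DESeq2 also called 0 of the 40. The KO minus WT log2 value was above 0 for 37 of 40 genes, including 19 of 19 mitotic genes, against 44.3% of all genes. The median was 0.85 for mitotic and 0.29 for S-phase genes, against -0.02 for all genes, but libraries labelled WT and KO overlapped for every one of the 40 (5.70% of all genes did not overlap). Leaving out 1 CTX library at a time moved the mitotic median from 0.52 without KO library 1 to 1.63 without WT library 2. The widest 95% limits over the 40 genes were -0.86 and 3.33. The neutrophil sums above were also higher in 3 of 4 KO libraries than in any WT library of CTX muscle.

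Bub1 had the smallest unadjusted p in that comparison. Its CTX libraries 1 to 4 had 0.340, 1.12, 0.399 and 0.550 CPM in WT and 2.07, 2.15, 0.503 and 2.34 CPM in KO. Its normal libraries had 13.6, 14.3, 5.70 and 6.16 CPM in WT and 10.1, 14.6, 14.3 and 4.20 CPM in KO. In CTX muscle 3 KO libraries exceeded all WT ones and KO library 3 fell among them. The KO minus WT log2 value was 1.53 (SE 0.57, 95% interval 0.32 to 2.75, edgeR adjusted p = 0.625). Cenpf was next at 1.85 (SE 0.70, 95% interval 0.36 to 3.33, adjusted p = 0.634).

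In normal muscle 0 of 40 genes were called, beside 0% of all genes, and 0 had an unadjusted p under 0.05, against 2.86% of all genes. DESeq2 called 0 as well. The log2 value was above 0 for 33 of 40 genes (50.9% of all genes), with a median of 0.17. Cdt1 had the smallest p, at -0.25 (SE 0.18, 95% interval -0.64 to 0.14, edgeR adjusted p = 0.991). The 95% intervals were narrow for some genes, such as -0.21 to 0.16 for Pcna and -0.33 to 0.18 for Mcm3, and the widest limits over the 40 genes were -1.12 and 1.70.

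The difference between the injury responses of the genotypes was tested as an interaction, and 0 of 40 genes were called, beside 0% of all genes. Both tools gave 0, and 1 gene had an unadjusted p under 0.05, against 4.73% of all genes. That gene was Cenpf, whose log2 fall was smaller in KO than in WT by 1.89 (SE 0.81, 95% interval 0.18 to 3.60, edgeR adjusted p = 0.972). The mitotic falls were larger in WT than in KO for 16 of 19 genes and the S-phase falls for 11 of 16, but no single difference passed. The interaction value was above 0 for 30 of 40 genes, against 48.8% of all genes.

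Other genes of the same pathways, taken from lists by role, gave the following counts with TMM scaling, to be read beside the shares of all genes tested (39.4% fell and 33.3% rose in WT, 40.2% and 33.3% in KO) and their medians of -0.15 and -0.16. Of 40 further mitosis genes 36 fell and 2 rose in WT and in KO, with medians of -2.60 and -2.24. Kif23, a motor of cytokinesis, changed by -2.19 in WT, and Espl1, the protease separase, by -1.64. Bub3, a checkpoint protein, rose by 0.56 and Fzr1, the activator of the anaphase-promoting complex in G1, by 0.72. Of 43 further origin, helicase and fork genes 27 fell and 2 rose in WT, with a median of -0.74, and 25 fell and 2 rose in KO, with a median of -0.53. Timeless, of the fork protection complex, changed by -2.68 in WT and Pola1, a subunit of DNA polymerase alpha-primase, by -2.25. Pold3 and Orc4 rose by 0.41 and 0.36 in WT, but Orc4 was not called in KO (0.21, edgeR adjusted p = 0.0545). Small rises such as those of Bub3, Pold3 and Orc4, and of E2f4 below, may depend on scaling. Pcna, at 0.49 in WT with TMM, was at -0.12 with library totals alone, and values of these genes with library totals are not given. All 11 S-phase checkpoint and recombination genes fell in both genotypes, with Fancd2 of the Fanconi pathway at -4.34 and the kinase gene Chek2 at -1.29 in WT.

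Lists of cycle entry regulators held calls in both directions, and those of G1 cyclins and kinases and of pocket proteins lay near the shares of all genes (39.4% lower and 33.3% higher in WT), so nothing is read from their counts. Of 8 further G1 cyclins and kinases 4 rose and 3 fell in WT: Cdk4 rose by 0.98 and Cdk7 by 0.86, while the D cyclins Ccnd3 and Ccnd2 changed by -1.82 and -2.05. Of 6 CDK inhibitors tested, 1 rose and 4 fell in each genotype. The one that rose was Cdkn1a, which encodes p21, from 337.1 ± 78.0 to 879.8 ± 68.6 CPM in WT (SD, n = 4). Its log2 change in WT was 1.38 (SE 0.23, edgeR adjusted p = 6.03e-05), and Cdkn1c and Cdkn2c changed by -1.62 and -1.81. Of 16 pocket protein, other E2F and MuvB genes 5 rose and 6 fell in WT, with E2f4 and Lin54 at 0.50 and 1.18 and Tfdp2 and Rbl2 at -2.74 and -0.96. Of 8 growth arrest genes 6 rose and 2 fell in each genotype. Mdm2, the p53 ubiquitin ligase, rose by 2.50 and Ccng2 by 1.40, whereas Btg2 and Gas1 changed by -3.10 and -2.32 in WT. Of 9 genes of macrophage growth and self-renewal 7 fell in WT and 8 in KO, among them Klf2 at -2.98 and the CSF1 receptor gene Csf1r at -0.86 in WT.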

How the data were processed

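The authors deposited 1 table of raw read counts per gene for the 16 libraries. Per the labels, RNA of sorted F4/80+ cells was made into SMART-Seq V4 libraries, which do not mark strand. The submitters' processing notes name FastQC 0.11.7, cutadapt 1.18, HISAT2 2.1.0, featureCounts, Subread 1.6.2 and the build mm10; counting options and annotation are not given in the sources used here. Gene positions, exon lengths and overlaps came from GENCODE M21.

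Counts were tested in R 4.3.3 with edgeR 4.0.16 (filterByExpr by group, TMM factors, quasi-likelihood test, all 16 libraries, 1 coefficient per group), with Benjamini-Hochberg adjustment over 13649 genes and a threshold of 0.05. Standard errors are the log2 change over the root of its F value. CPM are on TMM-scaled totals; mean log2 CPM used a prior count of 2. Library totals of 17051892 to 23097420 put 3 counts at 0.0992 to 0.199 CPM. No 2 libraries of a group agreed within sampling noise (chi-square per degree of freedom at least 6.03).

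The 40 genes and all lists were chosen with earlier results of these data known. Values in every library are given for the gene of smallest p in WT in each role list, Ccnd1, genes called against their list's majority, and the gene of smallest p in each genotype comparison; of other lists, the 2 calls of smallest p in WT in each direction. Other genes are given by their change. Gmnn, Top2a and Mki67 were given with group means after their values were seen.

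Alternatives were RLE factors, library totals, DESeq2 1.42.0, other filters, a replicate block, only the groups compared, each library left out in turn and no Xist libraries. Deviations from group means were correlated between WT and KO libraries of the same replicate number. In normal muscle r was 0.64, 0.57 and 0.24 for numbers 2, 3 and 5, and in CTX muscle it ran from -0.12 to 0. Normal-muscle libraries of different numbers were not compared, so these values do not show that the numbers mark pairs. Libraries of the same number in different states had r from -0.06 to 0.08. The code was tested on simulated data.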

Additional observations from a re-analysis of the deposited data

Results flagged for a closer look

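In groups of 4 libraries, 13 of 168 sets of values held 1 library whose gap to the nearest of the others was above Dixon's 95% critical value as a share of the whole range. Chance marks about 1 in 20 such groups, and the genes share libraries. KO CTX library 3 was low in Mcm5 (11.1 CPM, others 20.9 to 21.4), Uhrf1 (8.73 CPM, others 11.9 to 12.5) and Bub1 (0.503 CPM, others 2.07 to 2.34). It was also low in the mean log2 CPM of the S-phase genes (3.09, others 3.70 to 3.79) and of the mitotic genes (0.11, others 2.05 to 2.23). WT CTX library 2 was high in Kif11 (5.74 CPM, others 0.510 to 0.880), Birc5 (3.35 CPM, others 0.330 to 0.532) and Top2a (13.6 CPM, others 4.73 to 5.65). KO normal library 5, which holds Xist, was low in Cdc6 (5.33 CPM, others 8.75 to 9.33), Mcm4 (36.7 CPM, others 51.5 to 54.0) and Bub1b (19.8 CPM, others 36.7 to 39.3). Ccnd1 was high in WT CTX library 4 (13.7 CPM, others 8.14 to 8.37), and E2f1 in KO CTX library 2 (20.0 CPM, others 16.6 to 17.1).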

How the results depend on the processing

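With library totals alone, 1 gene in place of 2 was called higher in CTX muscle in WT, and 1 in place of 2 in KO, because Pcna turned to -0.12 (adjusted p = 0.186) and -0.18 (adjusted p = 0.0562). E2f8 was then also called lower in WT (-1.13, adjusted p = 0.0102) and KO (-1.29, 0.00414) and Ccne2 in KO (-1.16, 0.0297). E2f8 in KO was called with the 5 CPM filter (-0.85, 0.0469) and without KO normal library 5 (-0.95, 0.0185) too. With library totals alone the S-phase median was -1.97 in WT and -1.87 in KO. With the replicate block the S-phase median in WT was -1.76, without the Xist libraries -1.67. These runs are not independent, as the block sets no CTX library beside the Xist ones, whose numbers 5 and 6 occur only in normal muscle. The block changed no call from lower or higher to not called. It added Ccne2 in KO (edgeR adjusted p = 0.0157) and E2f8 in WT (0.0073) and KO (0.009). The block within normal muscle alone, chosen after seeing the data, called 0 of the 40 genes between genotypes. Leaving out 1 library at a time gave 35 to 37 genes lower and 2 to 2 higher in WT, and 35 to 37 and 2 to 2 in KO. The S-phase median ranged from -1.49 to -1.19 in WT and from -1.45 to -1.10 in KO, the mitotic median from -4.14 to -2.86 and from -2.90 to -2.32. Of 1232 refits of called genes in these leave-outs, 1221 kept their call, and the 11 lost were of Ccne2 and Aurka. In the other alternatives 611 of 613 kept it, the exception being Pcna with library totals. No alternative run called any of the 40 genes between genotypes or in the interaction. Genes under 1 CPM in CTX muscle, such as Cenpf and Plk1 in WT, rest on few counts, so the size of their fold is imprecise. Over all genes tested, DESeq2 called 17 higher and 26 lower between genotypes in CTX muscle, where edgeR called 1 higher, and 9 higher and 39 lower in the interaction, where edgeR called 0.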
